A study of Homo sapiens with 6 samples.

Results

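The genes described here are the p53 family members TP63 and TP73, the p53 regulators MDM2 and MDM4, and 5 p53 target genes, CDKN1A, SESN1, ZMAT3, TP53I3 and RRM2B. They were taken by gene symbol, and all 9 were found among the 26255 genes of the RNA-seq table. The experiment compared 3 libraries of NCI-H1299 cells carrying a pSilencer2.1-U6-neo control shRNA (shControl) with 3 libraries of the same line carrying an Ephexin1 shRNA in that vector (shEphexin1). NCI-H1299 is a lung cancer line described as p53-deficient, and the activity of p53 was not measured here. All 6 libraries came from cells in the same serum-containing medium. The study's methods describe stable knockdown clones selected with a hygro version of the vector, where the labels name neo. The 3 shEphexin1 libraries share a stem in their names and may come from 1 clone. No label states that the libraries are separate cultures, and the p values below then measure only the spread between libraries.

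The p53 protein is a transcription factor that binds response elements built from a pair of decamers and switches on genes of cell cycle arrest, DNA repair and cell death. MDM2, a ubiquitin ligase that is itself a p53 target, and its relative MDM4 bind p53 and keep it inactive. The p63 and p73 proteins have a DNA-binding domain much like that of p53 and can bind the same elements.

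The p53 response element was searched for in GRCh37, the build of the reads, within 3000 bases either side of the start of each gene's canonical transcript. A match was 2 decamers with no spacer, both core C and G letters intact and at most 2 mismatches elsewhere. A match was found for 4 of the 9 genes, against 4.61% of the 15200 windows searched for genes tested. These 4 genes are textbook p53 targets and were not a random sample of genes, so the shares are a description. The sequences show the matches of CDKN1A, MDM2 and ZMAT3, with the 4 core letters of each decamer in capitals. Binding of any protein to them was not measured.
CDKN1A: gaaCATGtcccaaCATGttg
MDM2: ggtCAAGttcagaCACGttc
ZMAT3: aaaCAAGtccagaCATGcct
The CDKN1A element lies at chr6:36644226-36644245 on the plus strand, 2265 bases upstream of the canonical transcript start, and has 2 mismatches. The annotated CDKN1A gene, which starts at 36644237, overlaps its last bases. The MDM2 element lies at chr12:69202703-69202722 on the plus strand, in intron 1, 746 bases after the start, with 2 mismatches. The ZMAT3 element lies at chr3:178787976-178787995 on the minus strand, in intron 1, 1602 bases after the start, with 0 mismatches. RRM2B had a match with 1 mismatch in intron 1, 2102 bases after its start. That no match was found for the other genes says only that these letters are not in the windows searched.

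The gene targeted by the shRNA was read first. Ephexin1 is listed as NGEF (GRCh37, chromosome 2, 233743411 to 233877966, minus strand) and was at 13.3, 11.7 and 16.4 FPKM under shControl, against 9.81, 8.25 and 10.5 FPKM under shEphexin1. FPKM are fragments per kilobase of transcript scaled to library size, so levels of different genes can be set side by side. NGEF mRNA was lower in every shEphexin1 library, at 68.9% of the control mean, but was not called (log2 difference -0.53, standard error 0.163, limma adjusted p = 0.103). The study checked the knockdown in its stable H1299 cells by western blot of Ephexin1 protein, which RNA values do not measure. A gene was called when its adjusted p over the 16020 genes tested was at most 0.025 and its difference at least 2-fold, and 1.89% of the genes tested were called. The read number behind each value is unknown, and a value of 0 is given only as listed. Replicate 2 of both groups differed from the other libraries. The deviation of a library from its group mean fell with the GC content of the gene in replicate 2 (Spearman's rho across genes, -0.688 for shControl, -0.759 for shEphexin1). In the other 4 libraries that rho was positive, from 0.335 to 0.665. With replicates 1 and 3 alone, the log2 difference of NGEF was -0.54 (adjusted p = 0.0338). That fit called 430 of all genes tested, against 303 in the fit to all 6 libraries. The share of genes at an adjusted p of at most 0.05 was not counted for it. Its adjusted p values, here and below, are therefore given as a description.

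The labelled cell line was read from a few marker genes. VIM, an intermediate filament gene of mesenchymal cells, was at 1979 to 2670 FPKM. The epithelial keratin gene KRT18 was at 67.6 to 109 FPKM under shControl, against 36.3 to 54.7 FPKM under shEphexin1, and its partner KRT8 at 5.13 to 8.44 and 2.65 to 3.48 FPKM. KRT18 and KRT8 were lower in every shEphexin1 library (limma adjusted p = 0.0439 and 0.0304), and neither was called. CDH1, the lung lineage factor NKX2-1 and the leukocyte gene PTPRC were listed at 0 in all 6 libraries, and EPCAM, SFTPB, NAPSA, PECAM1, COL1A1 and DCN did not pass 0.693 FPKM in any. Of the 8 markers tested, 2 others separated the groups upward at these low levels. Among all genes tested, 12.8% showed this upward order and 15.4% the downward order of KRT18 and KRT8. The epithelial adhesion gene EPCAM was at most 0.0663 FPKM under shControl, against 0.108 to 0.220 FPKM under shEphexin1 (limma adjusted p = 0.175). EPCAM passed the filter on low values only through its shEphexin1 libraries, so its groups had to differ and this order carries no weight. The fibroblast collagen gene COL1A1 was at 0.0813 to 0.124 FPKM under shControl, against 0.169 to 0.386 FPKM under shEphexin1 (limma adjusted p = 0.174). The part of these markers in the results below was not tested.

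None of the 9 genes was called differentially expressed, where 0.893% of the genes tested were called higher and 0.999% lower in shEphexin1, and none was called in any of the 20 other fits tried. At an adjusted p of at most 0.05 with no fold threshold, limma still gave 0 of the 9, against 7.01% of the genes tested (2.69% higher, 4.32% lower). At an unadjusted p of at most 0.05, limma gave 4 of the 9 genes, TP63, TP73, CDKN1A and TP53I3, against 23.3% of the genes tested. All 4 were higher in shEphexin1, and in each of them the lowest shEphexin1 library was above the highest shControl library, a pattern that 12.8% of the genes tested showed. The reverse order held for 15.4%, and the groups did not overlap in either direction for 28.3%. In the other 5 genes the groups overlapped. TP63 passed the filter on low values only through its shEphexin1 libraries, so a gene like it had to differ, and the count carries no weight as support. The exact permutation test over libraries gave p = 0.1 (two-sided) for each of the 4, the smallest value that 3 libraries against 3 allow.

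**Figure D1:**
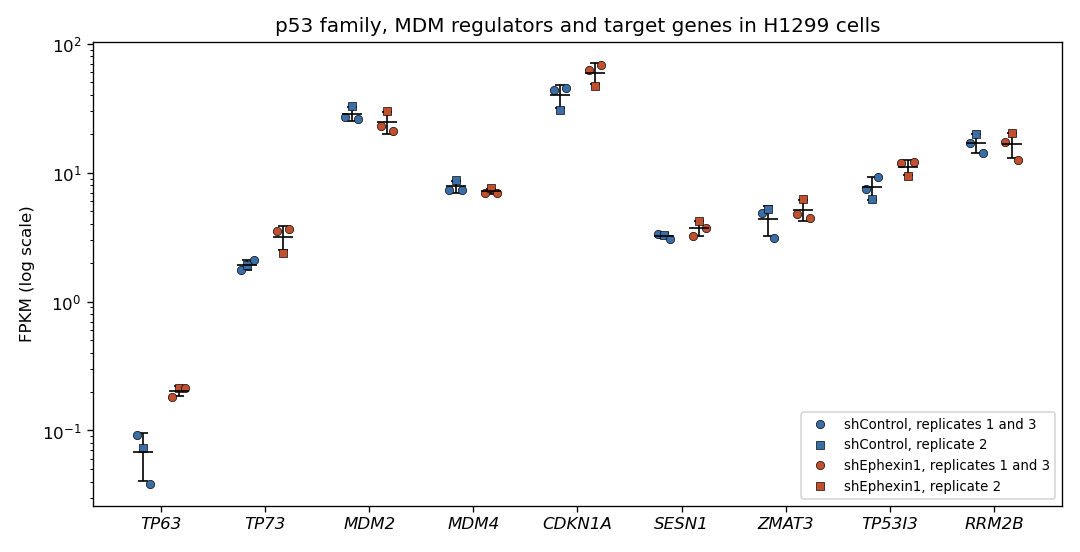
FPKM on a log scale for the 9 genes in each of the 6 libraries, blue for shControl and red for shEphexin1, with squares for replicate 2. Bars show the group mean and SD (n = 3 in each group). The red points lie above all blue points for TP63, TP73, CDKN1A and TP53I3, and the groups overlap for MDM2, MDM4, SESN1, ZMAT3 and RRM2B.

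Among the family members, TP73 was expressed and TP63 was near the floor of the table. TP73 (chromosome 1, 3569080 to 3652765, plus strand), which encodes p73, was at 1.77, 1.92 and 2.09 FPKM under shControl, against 3.55, 2.40 and 3.63 FPKM under shEphexin1. Every shEphexin1 library was above the controls, with replicate 2 nearest to them. The means ± SD of 3 libraries were 1.92 ± 0.162 and 3.19 ± 0.691 FPKM, a log2 difference of 0.68 (standard error 0.201, limma adjusted p = 0.0914) that did not pass the threshold. With replicates 1 and 3 alone the log2 difference was 0.87 (adjusted p = 0.0191), and within replicate 2 it was 0.31. WRAP73 and TP73-AS1, which overlap TP73 on the opposite strand, had log2 differences of -0.026 and 0.091. TP73-AS3 and TP73-AS2 overlap it on that strand by 9835 and 2099 bases and were not analysed here. Whether the authors' counting used strand is not given in the sources used here.

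TP63 (chromosome 3, 189349178 to 189615065, plus strand), which encodes the p63 factor of squamous and basal epithelium, was at 0.0917, 0.0731 and 0.0381 FPKM under shControl. In shEphexin1 it was at 0.181, 0.215 and 0.214 FPKM. The ratio of the means was 3.00, at levels where the pseudocount decides the size of the log2 difference. That difference was 0.87 (standard error 0.306, limma adjusted p = 0.144) with 0.1 FPKM added, 0.17 with 1 FPKM and 1.52 with 0.01 FPKM. The squamous keratin genes KRT5, KRT6A and KRT14 were listed at 0 in all 6 libraries. By level in shControl, TP63 and TP73 were the lowest of the 9 genes, and their ranges did not overlap with each other.

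The differences of the MDM regulators were negative and smaller than their intervals. MDM2 (chromosome 12, 69201957 to 69239324, plus strand) was at 26.9, 32.6 and 26.1 FPKM under shControl, against 23.0, 30.2 and 21.1 FPKM under shEphexin1. Replicate 2 was the highest library of each group, and the groups overlapped. The log2 difference was -0.21 (95% interval -0.59 to 0.17, limma adjusted p = 0.500). The 50 tested genes nearest to MDM2 had a median log2 difference of -0.34, and with that median subtracted the difference of MDM2 was 0.13 (adjusted p = 0.732). CPM, which overlaps MDM2 on the opposite strand, had a log2 difference of -0.50. The part of this regional shift in the MDM2 value was not tested.

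MDM4 (chromosome 1, 204485507 to 204527248, plus strand), whose protein binds and blocks p53 without an effective ligase activity of its own, was at 7.35, 8.77 and 7.31 FPKM under shControl. In shEphexin1 it was at 6.97, 7.58 and 7.002 FPKM. The groups overlapped, and the log2 difference was -0.12 (95% interval -0.42 to 0.19, limma adjusted p = 0.657). MDM2 mRNA was 3.65, 3.72 and 3.58 times as abundant per length as MDM4 mRNA in the shControl libraries, and 3.31, 3.98 and 3.02 times in the shEphexin1 libraries. The shControl ratios lay within the range of the shEphexin1 ratios.

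CDKN1A (chromosome 6, 36644237 to 36655114, plus strand), which encodes the cyclin-dependent kinase inhibitor p21, was the most highly expressed of the 9 genes in both groups. It was at 43.7, 30.4 and 45.2 FPKM under shControl, against 62.9, 47.1 and 68.0 FPKM under shEphexin1. Replicate 2 was the lowest library of each group, and even that shEphexin1 library was above all controls. The shEphexin1 mean ± SD of 59.4 ± 10.9 FPKM was 149% of the shControl mean of 39.7 ± 8.14 FPKM (n = 3 libraries each). The log2 difference of 0.58 (95% interval 0.12 to 1.05, limma adjusted p = 0.133) did not pass the threshold. With replicates 1 and 3 alone it was 0.56 (adjusted p = 0.00821), and within replicate 2 it was 0.63. DINOL, a noncoding RNA on the opposite strand that shares 951 bases with the annotated CDKN1A gene, was not analysed here.

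TP53I3 (chromosome 2, 24300303 to 24308731, minus strand), which encodes a quinone oxidoreductase also known as PIG3, also separated the groups. It was at 7.47, 6.23 and 9.32 FPKM under shControl, against 11.9, 9.44 and 12.003 FPKM under shEphexin1, so the lowest shEphexin1 library was close above the highest control. The log2 difference was 0.54 (95% interval 0.11 to 0.96, limma adjusted p = 0.129), or 0.51 with replicates 1 and 3 alone (adjusted p = 0.0438) and 0.59 within replicate 2. FAM228B spans the whole TP53I3 gene on the opposite strand. FAM228B was at 2.05 to 2.83 FPKM under shControl, against 1.11 to 2.09 FPKM under shEphexin1, so its groups overlapped. Its log2 difference of -0.71 (limma adjusted p = 0.154) was in the other direction.

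The other 3 targets did not separate the groups. SESN1 (chromosome 6, 109305512 to 109416049, minus strand), a sestrin that restrains mTORC1 signalling, was at 3.08 to 3.35 FPKM under shControl, against 3.21, 4.19 and 3.75 FPKM under shEphexin1. Its log2 difference was 0.18 (95% interval -0.17 to 0.54, limma adjusted p = 0.537). ZMAT3 (chromosome 3, 178677909 to 178790003, minus strand), an RNA-binding zinc finger gene, carries the element without mismatch shown above. It was at 4.87, 5.22 and 3.09 FPKM under shControl, against 4.81, 6.24 and 4.44 FPKM under shEphexin1, a log2 difference of 0.25 (95% interval -0.30 to 0.79, limma adjusted p = 0.586). RRM2B (chromosome 8, 103216730 to 103251189, minus strand) encodes the p53-inducible subunit of ribonucleotide reductase. It was between 14.2 and 19.9 FPKM under shControl, against 17.2, 20.1 and 12.6 FPKM under shEphexin1, with the highest and the lowest value both in shEphexin1 libraries (log2 difference -0.045, 95% interval -0.52 to 0.43, limma adjusted p = 0.927). Of the 4 genes with a response element match, 1 (CDKN1A) separated the groups, which is near the 28.3% of all genes tested. With replicates 1 and 3 alone, the log2 differences of the other 6 genes were 0.87 for TP63, -0.26 for MDM2, -0.069 for MDM4, 0.11 for SESN1, 0.25 for ZMAT3 and -0.077 for RRM2B. The limma adjusted p of these 6 then lay between 0.0876 (MDM2) and 0.783 (RRM2B).

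**Figure D2:**
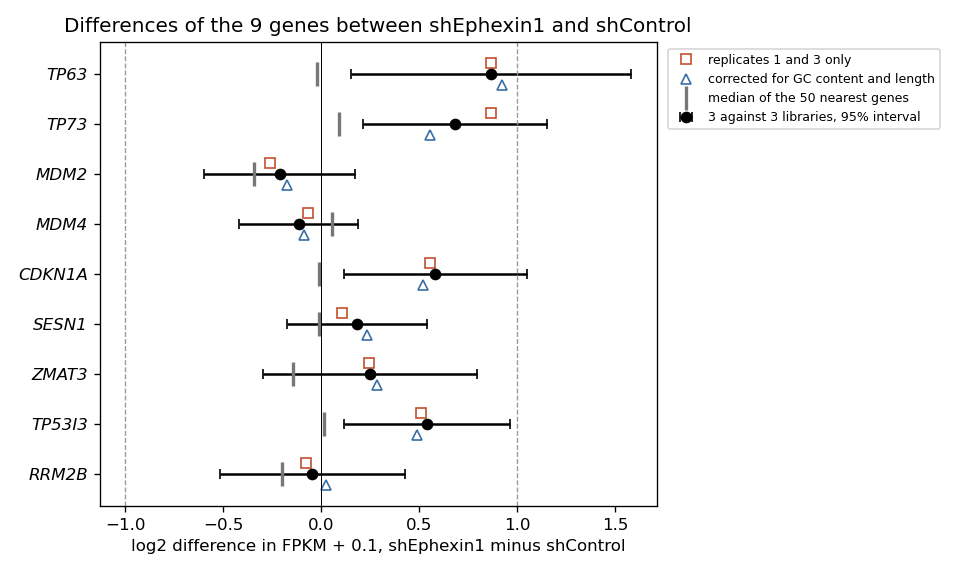
Log2 difference in FPKM + 0.1, shEphexin1 minus shControl, for the 9 genes. Black points show the fit to all 6 libraries with its 95% interval, red squares the fit to replicates 1 and 3, blue triangles the values corrected for GC content and transcript length, and grey ticks the median difference of the 50 nearest genes. Dashed lines mark 2-fold. The black intervals lie above 0 for TP63, TP73, CDKN1A and TP53I3, and the grey tick of MDM2 sits at -0.34.

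By mean level in shControl, the order of the 9 genes was CDKN1A, MDM2, RRM2B, MDM4, TP53I3, ZMAT3, SESN1, TP73 and TP63. The ranges of CDKN1A and MDM2, of MDM4 and TP53I3, and of ZMAT3 and SESN1 overlapped, and the other neighbours in this order did not. In shEphexin1 the order was the same except that TP53I3 stood above MDM4, and only SESN1 and TP73 overlapped among neighbours. CDKN1A was then at 47.1 FPKM or more and MDM2 at 30.2 FPKM or less.

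Of the genes that separated the groups, CDKN1A, TP53I3 and TP73 were GC-rich and TP63 was not. The longest annotated transcripts of CDKN1A, TP53I3 and TP73 are 58.1%, 59.4% and 61.1% GC, and those of the other 6 genes are 35.1% to 42.4% GC. Among all genes tested, the median log2 difference was 0.052 for the 1642 genes of 58 to 62% GC and -0.066 for the 4473 genes of 35 to 43% GC. When the trends with GC content and length were removed from the libraries, the log2 differences of CDKN1A, TP53I3 and TP73 were 0.52, 0.49 and 0.56 (limma adjusted p = 0.000998, 0.00370 and 0.0258), so all 3 stayed above 0 and under 2-fold. The part of GC content in the uncorrected values was not tested further. TP63 (42.4% GC) was at 0.92 in that fit (limma adjusted p = 0.0560). The fit with these trends removed called 523 of all genes, against 303 in the main fit. The share of all genes at these adjusted p values was not counted for it, so they are not read as a result.

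The promoters of these 3 genes are shown because these GC-rich genes separated the groups, so the choice followed the outcome. They are RefSeq promoters on GRCh38.p14, from 250 bases before to 50 after the start, with the GC box (GGGCGG, or CCGCCC on the other strand, overlaps counted) in capitals. Of 35116 RefSeq promoters, 44.95% hold at least 1 GC box and 9.06% hold 4 or more.
CDKN1A: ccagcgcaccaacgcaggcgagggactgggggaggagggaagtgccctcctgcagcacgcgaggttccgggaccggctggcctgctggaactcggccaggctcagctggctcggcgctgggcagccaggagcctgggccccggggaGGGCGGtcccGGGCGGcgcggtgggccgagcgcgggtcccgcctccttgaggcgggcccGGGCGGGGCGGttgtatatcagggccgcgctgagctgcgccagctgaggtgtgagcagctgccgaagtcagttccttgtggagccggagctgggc
TP73: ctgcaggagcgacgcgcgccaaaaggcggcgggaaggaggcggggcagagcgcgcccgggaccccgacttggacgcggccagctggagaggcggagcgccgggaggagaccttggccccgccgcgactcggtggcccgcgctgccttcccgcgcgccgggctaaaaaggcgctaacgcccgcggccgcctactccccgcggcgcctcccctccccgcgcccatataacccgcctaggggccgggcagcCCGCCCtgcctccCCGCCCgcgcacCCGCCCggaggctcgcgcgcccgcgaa
TP53I3: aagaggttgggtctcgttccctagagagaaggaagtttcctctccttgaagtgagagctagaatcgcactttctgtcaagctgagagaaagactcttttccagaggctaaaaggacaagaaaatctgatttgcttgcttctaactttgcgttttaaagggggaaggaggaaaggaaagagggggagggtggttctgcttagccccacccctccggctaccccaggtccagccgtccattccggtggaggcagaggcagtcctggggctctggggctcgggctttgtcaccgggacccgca
The CDKN1A promoter (chr6:36678464-36678763, plus strand) holds 4 GC boxes, the first TP73 promoter (chr1:3652266-3652565, plus strand) holds 3, and the TP53I3 promoter (chr2:24084785-24085084, minus strand) holds 0. The other TP73 promoters hold 1 and 0. Among the genes whose groups overlapped, the SESN1 promoters hold 8, 5 and 1 GC boxes and each MDM2 promoter holds 1. The ZMAT3 promoters hold 1 and 0 and that of MDM4 holds 0, as does that of TP63, which separated the groups. A count of boxes describes these letters, and their part in the results was not tested.

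TP73 had the largest moderated t of the 9 genes. The genes most like it over the 6 libraries, by Pearson's r on the log2 scale among 12635 other genes with a mean of at least 1 FPKM, were SLC44A2 (r = 0.995), ZCCHC24 (r = 0.994) and CAPN3 (r = 0.992). As many as 551 genes had an r above 0.9 with TP73, so with 6 libraries in 2 groups this likeness is common.

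The wider p53 pathway was read from 5 lists of 86 genes in all, of which 72 were tested. PLK3 and JAG2 were the genes called, 2 of 72 against 1.89% of all genes tested. The median log2 difference over the 72 genes was -0.077, against -0.0093 over all genes. Of the 72 genes, 31 had a positive and 41 a negative difference, beside 7835 and 8185 of all genes tested. Adjusted p values of at most 0.05 went to 3 genes with a positive and 8 with a negative difference, where 2.69% of the genes tested were higher and 4.32% lower at that threshold.

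Among 18 tested targets of cell cycle arrest and repair, 1 was called. PLK3, a stress-responsive polo-like kinase gene, was at 3.12, 3.04 and 4.23 FPKM under shControl, against 8.13, 6.01 and 9.51 FPKM under shEphexin1 (log2 difference 1.16, standard error 0.214, limma adjusted p = 0.0245). It was close to the threshold. With 1 library left out at a time its adjusted p lay between 0.0156 and 0.122, and the call remained only without shEphexin1 replicate 2. The adjusted p of PLK3 was 0.00821 for replicates 1 and 3 alone. PLK2, another kinase gene of the same family, was at 8.64, 8.90 and 8.11 FPKM under shControl, against 4.75, 5.13 and 4.10 FPKM under shEphexin1. Its log2 difference of -0.87 (standard error 0.135, limma adjusted p = 0.0148) passed on p and not on fold. POLH, a translesion polymerase gene, and CCNG1, the cyclin G1 gene, had log2 differences of 0.32 and -0.52 (adjusted p = 0.126 and 0.133). The median of the list was -0.18.

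Among 19 tested targets of cell death and metabolism, 0 were called, and limma gave 9 of them an unadjusted p of at most 0.05, 5 higher and 4 lower in shEphexin1, where 23.3% of the genes tested had such a p. GDF15, a secreted stress factor, and PML, the nuclear body gene, had the largest differences, 0.69 and 0.56 on the log2 scale (limma adjusted p = 0.127 and 0.189). CYFIP2 and TIGAR, a fructose bisphosphatase gene, had the most negative ones, at -0.77 and -0.55 (adjusted p = 0.0415 and 0.120). TRIAP1, named after its value was seen, had a log2 difference of -0.55 (adjusted p = 0.0383) and did not reach 2-fold. BAX, a classical death effector, was at 17.6 to 29.7 FPKM under shControl, against 16.5 to 27.8 FPKM under shEphexin1. EDA2R and SPATA18 were listed at 0 throughout, and the median of the list was 0.082.

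Among 20 regulators and cofactors, 0 were called, and limma gave 6 an unadjusted p of at most 0.05, 4 higher and 2 lower, a share near the 23.3% of the genes tested. PPP1R13L, which encodes the p53-binding inhibitor iASPP, was at 11.8, 8.80 and 13.5 FPKM under shControl, against 19.7, 12.8 and 23.0 FPKM under shEphexin1 (log2 difference 0.68, limma adjusted p = 0.156). HIPK2, a kinase that phosphorylates p53, had a log2 difference of 0.47 (adjusted p = 0.0418), where its 50 nearest genes had a median of 0.42, and 0.055 was left with that median subtracted (adjusted p = 0.838). CDKN2A, whose locus encodes p16 and the MDM2 inhibitor ARF, was at 75.9 to 105 FPKM under shControl, against 52.5 to 79.1 FPKM under shEphexin1 (log2 difference -0.40, adjusted p = 0.275). The checkpoint kinase gene CHEK2 had a log2 difference of -0.38 (adjusted p = 0.0808).

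The p21-DREAM list holds 12 mitotic genes that p21 is known to repress through the DREAM complex. None was called, and limma gave 5 of the 12 an unadjusted p of at most 0.05, all 5 lower in shEphexin1 and all with an adjusted p of at most 0.05, where 4.32% of the genes tested were lower at that adjusted p. CDK1, the mitotic kinase gene, was at 191, 222 and 174 FPKM under shControl, against 106, 147 and 92.2 FPKM under shEphexin1 (log2 difference -0.79, standard error 0.184, limma adjusted p = 0.0479). CKS2, which encodes a CDK-binding subunit, had a log2 difference of -0.69 (standard error 0.101, adjusted p = 0.0124). BIRC5, AURKA and CCNB2, named after their values were seen, had log2 differences of -0.67, -0.50 and -0.39 (adjusted p = 0.0326, 0.0257 and 0.0485). In all, 10 of the 12 differences were negative, and in 6 of the 12 genes every shEphexin1 library was below every control, against 15.4% of the genes tested. The sixth of these was the cyclin gene CCNB1, at 249, 264 and 252 FPKM under shControl, against 216, 246 and 199 FPKM under shEphexin1 (log2 difference -0.22, adjusted p = 0.283). The groups overlapped for PLK1 and CDC20 (log2 differences -0.27 and -0.23), for TOP2A and the proliferation marker MKI67 (-0.089 and -0.10), and for CDC25C and BUB1 (0.017 and 0.078). The median of the list was -0.25. The 50 genes nearest to these 5 also had negative medians, from -0.35 at CDK1 to -0.10 at CCNB2, and with them subtracted CKS2 alone of the 5 kept an adjusted p of at most 0.05 (0.0498). With 1 library left out at a time, the adjusted p of CDK1 lay between 0.0147 and 0.177 and that of CKS2 between 0.0143 and 0.0918. Those of the 5 genes lay, for replicates 1 and 3 alone, between 0.00341 (CKS2) and 0.0105 (CCNB2). The part of p21 or DREAM in these differences was not tested. Nor was that of the reduced proliferation that the study reports for its Ephexin1 knockdown cells.

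**Figure D3:**
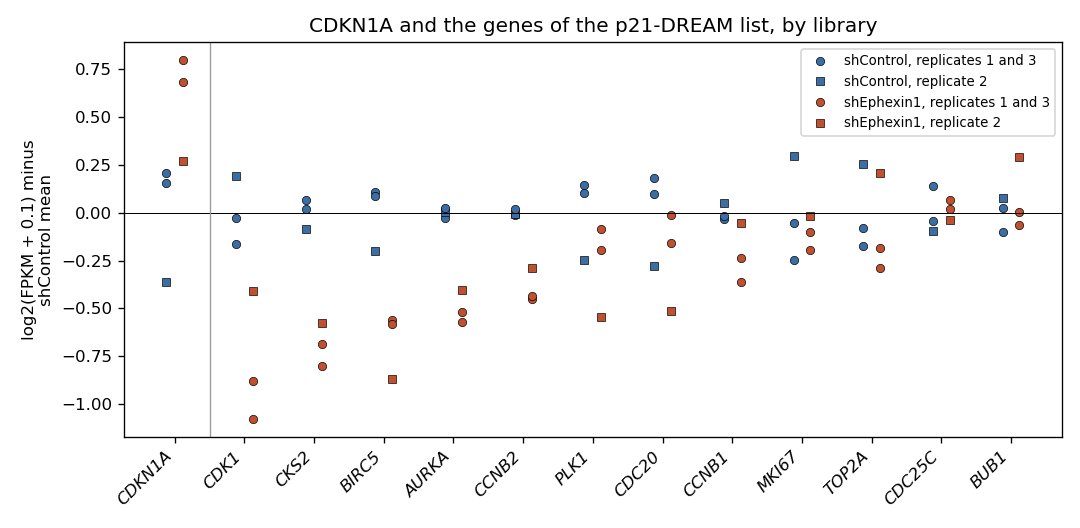
Level of CDKN1A and of the 12 genes of the p21-DREAM list in each library, as log2(FPKM + 0.1) minus the shControl mean of the gene, blue for shControl and red for shEphexin1, with squares for replicate 2. CDKN1A lies above its controls, CDK1, CKS2, BIRC5, AURKA, CCNB2 and CCNB1 lie below theirs, and the groups overlap for PLK1, CDC20, MKI67, TOP2A, CDC25C and BUB1.

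Of 12 squamous genes, several of them linked to p63, 6 were listed at 0 in all libraries and 3 were tested. JAG2, a Notch ligand gene, was at 0.846, 0.645 and 0.923 FPKM under shControl, against 5.95, 3.45 and 6.80 FPKM under shEphexin1, a log2 difference of 2.56 (standard error 0.277, limma adjusted p = 0.00400). It was called, but not without shControl replicate 1 or without shEphexin1 replicate 1 (adjusted p = 0.0329 and 0.0313). With replicates 1 and 3 alone its log2 difference was 2.72 (adjusted p = 0.00118). The integrin gene ITGB4 overlapped between the groups, with a log2 difference of 0.34 (adjusted p = 0.513).

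**Figure D4:**
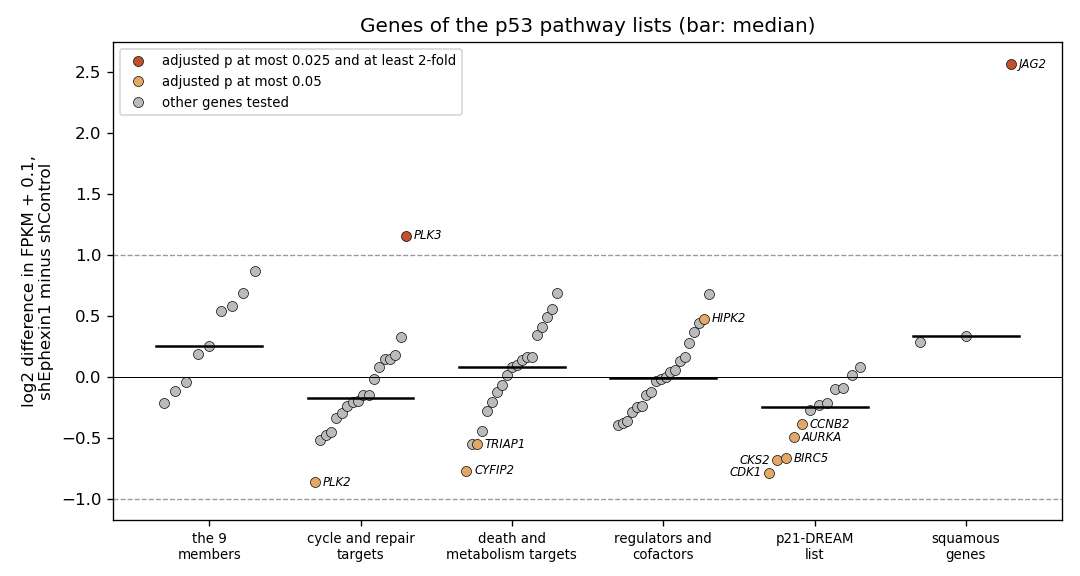
Log2 difference in FPKM + 0.1, shEphexin1 minus shControl, of each tested gene of the 9 members and the 5 lists, 1 point per gene with black bars at the medians. Red points were called, orange points had an adjusted p of at most 0.05, and dashed lines mark 2-fold. PLK3 and JAG2 are the red points, and the members show none.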

How the data were processed

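RNA-seq libraries, 3 of shControl and 3 of shEphexin1, were made from H1299 total RNA with a stranded kit. According to the methods and the submitters' processing notes, TopHat2 2.0.13 placed the reads on GRCh37, and the authors deposited FPKM per gene and library from Cuffdiff (Cufflinks 2.2.1) with geometric library normalization. The gene annotation and strand setting are not given in the sources used here. Low values did not fall on clean steps, so reads were not recovered and depth is unknown.

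A gene was tested if 3 or more libraries reached 0.1 FPKM. The limma 3.58.1 fit (R 4.3.3, trended eBayes) used log2(FPKM + 0.1), and p values of the 16020 genes were adjusted by the Benjamini-Hochberg method. The thresholds for a call (0.025 and 2-fold) follow the study's. Levels with an error are means ± SD. Positions, GC content and lengths came from GENCODE release 44 on GRCh37, which held 22422 of the 26253 names directly and 1332 through an older symbol. Promoters came from RefSeq on GRCh38.p14 and 8 of the 9 genes matched. Python 3.11.15, pandas 2.3.3 and matplotlib 3.10.9 were used. The pipeline was tested on simulated data.

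The members and lists were chosen with earlier results of these data known. Genes named from the lists are those called, the 2 with the largest and the 2 with the smallest log2 difference in each list (mean of at least 1 FPKM), and those said to be named after their values were seen. BAX, EDA2R, SPATA18, CCNB1, PLK1, CDC20, TOP2A, MKI67, the markers under 1 FPKM and the GC classes were also chosen after values were seen. The settings of the response element search were not varied. A gene that the naming rule covers is not reported here.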

Additional observations from a re-analysis of the deposited data

How the results depend on the processing

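None of the 9 members was called under any alternative. Of 22 alternatives, 1, a batch term for replicate 2, was added after the data had been seen. Over all genes, 303 were called, 523 with GC content and length correction, 520 with that correction and the replicate block, 564 with the batch term, 139 with a pseudocount of 1 FPKM, 464 at an adjusted p of at most 0.05 with the same fold and 1123 with no fold threshold. With each library left out, between 61 and 316 were called.

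Of the pathway lists, 2 genes were called and 1 with eBayes without trend, with no filter, with a pseudocount of 1 or 0.01 FPKM or with the median of the 50 nearest genes subtracted, when PLK3 was lost. At an adjusted p of at most 0.05 with no fold threshold 11 were, and with each library left out between 0 and 2. The median of the cycle and repair targets (-0.18) was 0.026 with the nearest genes subtracted and -0.13 with quantile normalization, and from -0.18 to -0.099 with each library left out. The median of the death and metabolism targets (0.082) lay between -0.0039 (without shEphexin1 replicate 1) and 0.17 (without shEphexin1 replicate 3) and was -0.0026 without shControl replicate 2. That of the regulators (-0.010) lay between -0.071 and 0.024 in the same fits. The median of the p21-DREAM list (-0.25) was -0.12 with quantile normalization, and from -0.38 to -0.23 with each library left out. The median of the 3 squamous genes (0.34) was 0.76 with the nearest genes subtracted, and from 0.33 to 0.59 with each library left out. With a filter of 1 FPKM only JAG2 and ITGB4 were left of them, and the median was 1.45.

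The direction of 2 members changed. MDM2 was at 0.13 with the nearest genes subtracted. RRM2B was at 0.025 with GC content and length correction, with or without the replicate block, at 0.16 with the nearest genes subtracted, and between -0.19 and 0.14 when single libraries were omitted. In each case the cause was not tested.

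The replicate block raised the number of genes called to 556 and called 0 members, since their differences stayed under 2-fold. With the block, 4 of the 9 had a limma adjusted p of at most 0.05, where 0 did without it: CDKN1A (0.000471), TP53I3 (0.00493), TP73 (0.0225) and MDM2 (0.0304). The share of all genes tested at that threshold was not counted for this fit, so the 4 are not read as a result. The deviations of same-numbered libraries correlated by 0.0914, 0.430 and 0.328 across genes for replicates 1, 2 and 3, and every library correlated best with its own number. The methods name no block, so the main fit used none, and its p values leave out any deviation shared by number. FPKM without reads give no interval for counting error, which limits the TP63 values most.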
